A study of Mus musculus with 27 samples.

Results

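Liver mRNA of 10 genes that make, sense and move bile acids was measured by RNA-Seq in 27 male C57BL/6J mice. The 10 are the enzymes *Cyp7a1*, *Cyp8b1*, *Cyp27a1* and *Cyp7b1*, the nuclear receptors *Nr0b2* (SHP) and *Nr1h4* (FXR), the bile acid transporters *Slc10a1* (NTCP) and *Abcb11* (BSEP), and the sterol half-transporters *Abcg5* and *Abcg8*. They were chosen by gene symbol, and each was found among the 23191 symbols of the count table. The mice were littermate controls and whole-body HGFAC-KO mice, in which a CRISPR/Cas9 deletion removed part of exon 1 and exon 2 of *Hgfac*. HGFAC is a protease secreted by the liver that activates hepatocyte growth factor. From 8 weeks of age both genotypes were fed chow or HF/HS, a diet rich in fat and sucrose, and livers were taken after 4 weeks on the diet. The chow groups held 7 controls and 6 HGFAC-KO mice, and the HF/HS groups held 7 mice of each genotype. The deletion is carried by the whole body, so that nothing in this design separates a loss in liver from a loss elsewhere.

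As background, the classic route of bile acid synthesis starts with CYP7A1, the rate-limiting 7α-hydroxylase, and CYP8B1 adds the 12α-hydroxyl group that steers the product to cholic acid. The alternative route starts with CYP27A1 in mitochondria and continues with CYP7B1. FXR, the bile acid receptor, induces SHP, a repressor without a DNA-binding domain that lowers *Cyp7a1* and *Cyp8b1*, and it induces BSEP, the pump that exports bile salts across the canalicular membrane. NTCP takes up conjugated bile salts at the sinusoidal membrane. ABCG5 and ABCG8 form 1 heterodimer that secretes cholesterol and plant sterols into bile, and LXR is known to induce both genes.

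RefSeq promoter windows of GRCm38.p6 were found for 8 of the 10 genes, and 3 stretches before start sites are shown with motifs found in them. The letters marked in *Abcb11* resemble the motif of FXR, and those marked in the other stretches are the LRH-1 core and the GATA core, which are not motifs of FXR or LXR. The *Abcb11* stretch covers the 250 bases before the start site (chr2:69342617-69342866, minus strand), and its capitals mark a match to IR-1, the inverted repeat to which FXR binds with RXR, with 1 base left free, that begins 63 bases before the start. The *Nr0b2* stretch covers the 250 bases before its start (chr4:133553126-133553375, plus strand), and its capitals mark TCAAGG, the core bound by LRH-1 (NR5A2), at 68 and 35 bases before the start. The third is the 109 bases between the start site of *Abcg5* and 1 of 2 RefSeq start sites of *Abcg8* (chr17:84683012-84683120, written on the minus strand as *Abcg5* is read), with the GATA core AGATAA in capitals. The other *Abcg8* start, at 84676302, lies inside the *Abcg5* gene, and the annotated *Abcg8* gene that begins there covers the stretch.
Abcb11: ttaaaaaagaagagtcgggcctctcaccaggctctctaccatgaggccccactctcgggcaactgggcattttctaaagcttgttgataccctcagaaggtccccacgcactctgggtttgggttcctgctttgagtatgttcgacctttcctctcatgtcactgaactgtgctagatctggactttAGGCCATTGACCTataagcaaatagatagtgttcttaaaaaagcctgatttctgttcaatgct
Nr0b2: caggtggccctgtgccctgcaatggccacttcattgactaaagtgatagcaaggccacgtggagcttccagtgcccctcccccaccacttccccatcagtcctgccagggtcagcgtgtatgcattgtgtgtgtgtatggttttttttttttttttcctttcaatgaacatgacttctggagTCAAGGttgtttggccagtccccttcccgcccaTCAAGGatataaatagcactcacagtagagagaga
Abcg5 and Abcg8: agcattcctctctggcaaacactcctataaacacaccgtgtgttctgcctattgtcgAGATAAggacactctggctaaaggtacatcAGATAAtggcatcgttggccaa

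Each motif was searched on both strands of 32851 promoter windows of 300 bases. IR-1 with 1 free base was found in 0.0365% of them, TCAAGG in 14.4% and AGATAA in 11.2%. The free base was allowed after the *Abcb11* window had been seen, and the strict form of IR-1, in 0.00913% of windows, was in no window of the 10 genes. The half-site AGGTCA, of which IR-1 holds a pair, was in 16.3% of windows, among them 1 of *Abcb11*, where it lies inside the IR-1 match, 1 of *Nr1h4* and 1 of 2 of *Slc10a1*. These matches describe the letters and say nothing on binding in these livers.

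Between 36056177 and 57298657 counts were deposited per mouse (median 47239271), and the 10 genes had at least 787 counts in every mouse, so that counting error is small beside the spread between mice. *Hgfac* itself lay between 65.4 and 84.5 CPM (counts scaled to library size, with TMM factors) in HGFAC-KO mice on chow, where controls had 183 to 219 CPM. On HF/HS it lay between 81.8 and 100.7 CPM, where controls had 247 to 296 CPM, so that the genotypes did not overlap on either diet. The counts are per gene, so that the exons from which the remaining *Hgfac* counts came cannot be read from them. No pair of libraries in a group matched within sampling noise. One library, HGFAC-KO on chow replicate 1, stood somewhat apart (median correlation with its group 0.981) and had the lowest level of its group for 7 of the 10 genes, and control on HF/HS replicate 7 had a median correlation of 0.980. Hepatocyte markers summed to between 81749 and 120512 CPM over all mice (9 of 10 listed symbols were in the table, none at 0). The labels do not say whether mice shared a litter or cage, so that p-values measure the spread between these mice.

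Per kilobase of exon, *Cyp8b1* was the most abundant of the 10 in all 4 groups and *Abcg8* the least. In controls on chow the mean levels in CPM per kilobase were 359.9 ± 60.8 (SD, n = 7) for *Cyp8b1*, 199 ± 18.7 for *Cyp27a1*, 179 ± 13.0 for *Slc10a1* and 163 ± 24.5 for *Cyp7b1*. The lower members were *Abcb11* at 83.8 ± 7.11, *Nr1h4* at 59.9 ± 8.13, *Nr0b2* at 41.8 ± 4.36, *Cyp7a1* at 31.5 ± 11, *Abcg5* at 13.6 ± 1.57 and *Abcg8* at 10.2 ± 1.42. The ranges of mean ± SD overlapped between *Cyp27a1* and *Slc10a1*, between *Slc10a1* and *Cyp7b1*, and between *Nr0b2* and *Cyp7a1*. They did not overlap at the other steps of the order. On HF/HS, *Cyp7b1* stood second in controls at 232 ± 90.0 and behind *Slc10a1* in HGFAC-KO mice at 194 ± 81.4 (SD, n = 7 in each), within its SD of *Slc10a1* in both.

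The genotype changed none of the 10 genes past the threshold on either diet. With edgeR's quasi-likelihood test and Benjamini-Hochberg adjustment over all genes, 0 of 10 were called on chow, where 0.00737% of 13571 genes were, and 0 of 10 on HF/HS, where 0.0148% of 13544 genes were (0.00738% in each direction). At an unadjusted p under 0.05, 1 of 10 passed on chow (background 5.98%) and 0 of 10 on HF/HS (background 9.64%). DESeq2 also called 0 of 10 on each diet (background 0.0958% and 0.406%). The summed hepatocyte markers were above those of every control in 4 of 6 HGFAC-KO mice on chow and 6 of 7 on HF/HS, and their part in the genotype values was not tested. HGFAC-KO minus control, the median log2 fold change was -0.047 over the 10 genes on chow and -0.017 on HF/HS, against 0.0031 and -0.0015 over all genes tested. With so few genes called at all, what these data give is the interval of each difference, whose half-width ran from 0.15 for *Cyp27a1* on HF/HS to 0.75 for *Cyp7a1* on chow (log2).

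By diet the 10 genes were called no more often than genes at large. The 1 call, *Slc10a1* in controls, was lost in 12 of 14 fits that left out 1 mouse, with upper-quartile normalization and with no filter on low counts. HF/HS against chow gave 1 of 10 called in controls (background 10.5% of 13525 genes, 4.93% higher and 5.6% lower) and 0 of 10 in HGFAC-KO mice (background 5.89% of 13613 genes, 3.17% higher and 2.73% lower). At an unadjusted p under 0.05 these were 3 of 10 (background 25.4%) and 1 of 10 (background 22.4%). DESeq2 called 1 of 10 in controls, *Slc10a1* (background 14.3%), and 1 of 10 in HGFAC-KO mice, *Abcb11* (background 10.3%). A genotype effect that differed by diet was called for 0 of 10 genes by edgeR and by DESeq2 (background 0% of 13932 genes), and 0 of 10 passed an unadjusted p under 0.05 (background 3.63%). The groups of mice overlapped for each of the 10 genes in all 4 pairwise comparisons, where the share of all genes tested with groups apart was 0.125% and 0.0812% for the genotype on chow and HF/HS, and 3.53% and 3.01% for the diet in controls and HGFAC-KO mice.

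**Figure D1:**
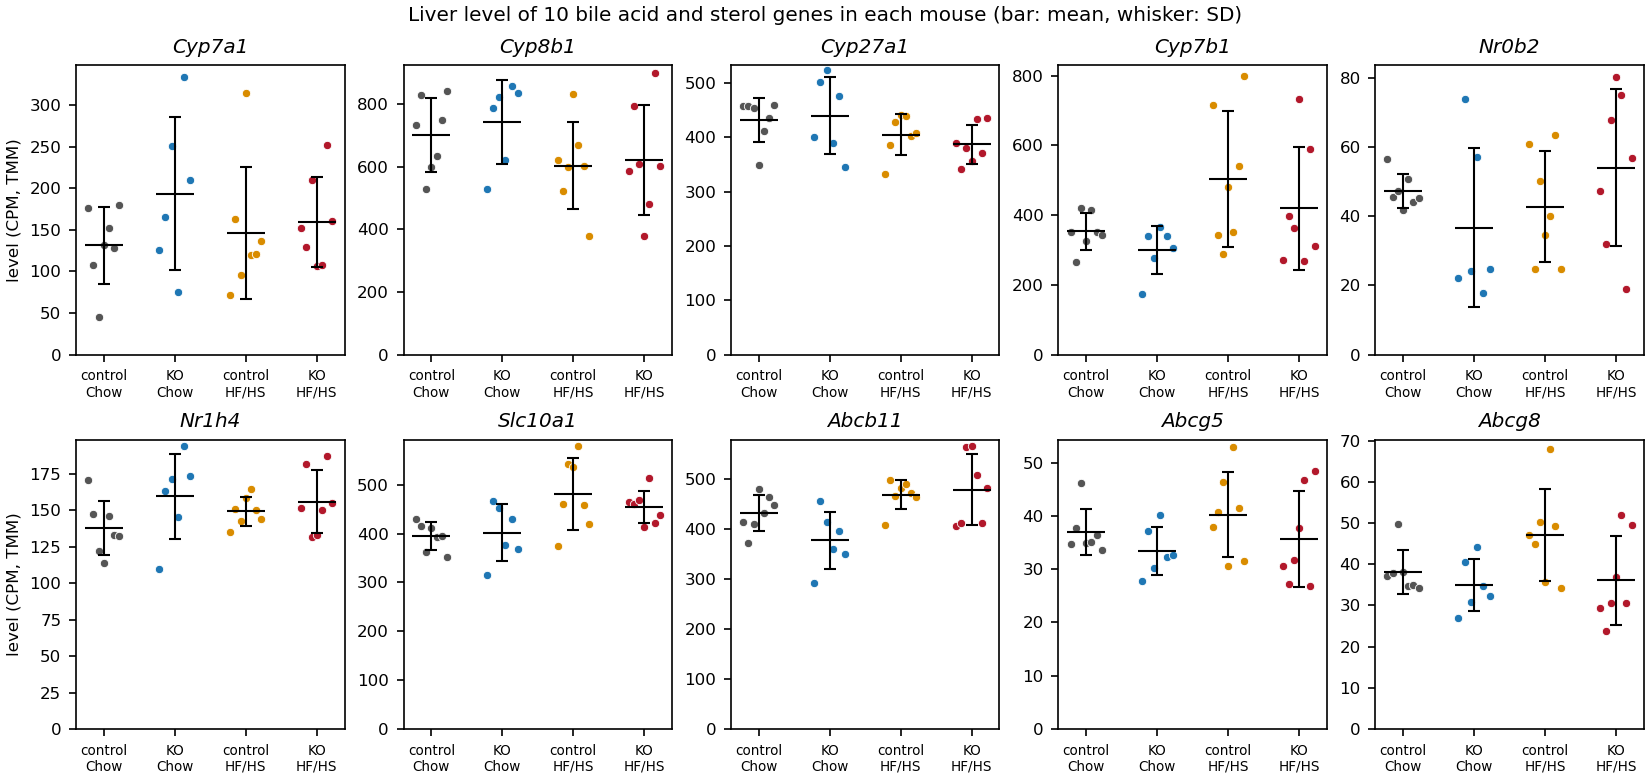
Level of each gene in every mouse (y axis, CPM after TMM scaling, from 0) in the 4 groups (x axis); points are mice, the bar is the mean and the whisker the SD. The *Nr0b2* points of HGFAC-KO mice on chow spread from 17.9 to 73.8 CPM while those of controls on chow stay between 41.7 and 56.6 CPM, and the *Slc10a1* points of controls lie higher on HF/HS than on chow with some overlap.

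The first enzyme of the classic route varied widely between mice of one group. *Cyp7a1* (chromosome 4, 6265612 to 6275633, minus strand) measured on chow 45.6 to 180.4 CPM (median 131) in controls and 75.7 to 333 CPM (median 188) in HGFAC-KO mice. It measured on HF/HS 71.8 to 315 CPM (median 121) in controls and 106 to 252 CPM (median 153) in HGFAC-KO mice. Controls on chow therefore already span a 3.95-fold range, and the groups overlap throughout. The low end of that range is 1 mouse, replicate 3 at 45.6 CPM, with the next control on chow at 107 CPM. The HGFAC-KO mean was higher on chow, 193 ± 92.1 CPM (SD, n = 6) against 132 ± 46.1 CPM (SD, n = 7), with a log2 fold change of 0.56 (95% interval -0.19 to 1.31, adjusted p = 0.822), and an exact two-sided permutation test gave p = 0.229. On HF/HS the log2 fold change was 0.13 (95% interval -0.52 to 0.78, adjusted p = 0.924). The diet gave 0.15 (95% interval -0.56 to 0.86, adjusted p = 0.829) in controls and -0.28 (95% interval -0.95 to 0.40, adjusted p = 0.642) in HGFAC-KO mice. One control on HF/HS, replicate 4 at 315 CPM, decided the sign of the first of these, which was -0.16 without it, and the genotype then gave 0.44 on HF/HS.

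*Cyp8b1* (chromosome 9, 121914356 to 121916305, minus strand) was steadier. It measured on chow 528 to 841 CPM (median 732) in controls and 529 to 856 CPM (median 804) in HGFAC-KO mice. Its levels were on HF/HS 380.3 to 832 CPM (median 601) in controls and 379.7 to 898 CPM (median 602) in HGFAC-KO mice. The HF/HS medians are the lower ones in both genotypes, but the ranges overlap, and the log2 fold change by diet was -0.22 (95% interval -0.52 to 0.084, adjusted p = 0.367) in controls and -0.26 (95% interval -0.63 to 0.12, adjusted p = 0.421) in HGFAC-KO mice. The genotype gave 0.085 on chow and 0.042 on HF/HS (adjusted p = 0.902 and 0.965). The log2 ratio of *Cyp8b1* to *Cyp7a1* in a mouse, which does not depend on library scaling, was 2.51 ± 0.55 (SD, n = 7) in controls and 2.07 ± 0.57 (SD, n = 6) in HGFAC-KO mice on chow. On HF/HS it was 2.16 ± 0.65 (SD, n = 7) and 1.97 ± 0.33 (SD, n = 7). None of the 4 comparisons of this ratio passed an exact two-sided permutation test (lowest p = 0.191, adjusted p = 0.51 over the 8 tests of 2 ratios).

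The alternative route gave an enzyme with little spread and one with a wide spread on HF/HS. *Cyp27a1* (chromosome 1, 74713574 to 74737892, plus strand) ranged over all mice only from 333 to 523 CPM, and its log2 fold changes lay between -0.18 (HF/HS against chow in HGFAC-KO mice, adjusted p = 0.274) and 0.029 (genotype on chow, adjusted p = 0.955). *Cyp7b1* (chromosome 3, 18071950 to 18243338, minus strand), the oxysterol 7α-hydroxylase, measured on chow 265 to 419.7 CPM (median 352) in controls and 173 to 365 CPM (median 322) in HGFAC-KO mice. It measured on HF/HS 289.5 to 798 CPM (median 480.3) in controls and 269 to 732 CPM (median 362) in HGFAC-KO mice. Of the HF/HS mice, 4 of 7 controls exceeded every control on chow and 3 of 7 HGFAC-KO mice exceeded every HGFAC-KO mouse on chow, while the other mice stayed within the chow range. The log2 fold change by diet was 0.50 (95% interval 0.058 to 0.95, adjusted p = 0.145) in controls, with an unadjusted p of 0.0295, and 0.48 (95% interval -0.052 to 1.02, adjusted p = 0.273) in HGFAC-KO mice. Exact two-sided permutation tests gave p = 0.0880 and p = 0.167. The genotype gave -0.23 on chow and -0.26 on HF/HS (adjusted p = 0.822 and 0.805).

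Of the receptors, *Nr0b2* (chromosome 4, 133553376 to 133556536, plus strand) spread over a coefficient of variation of 62.8% in HGFAC-KO mice on chow and 10.5% in controls. Controls on chow measured 41.7 to 56.6 CPM (median 45.5). The 6 HGFAC-KO mice on chow measured 22.2, 73.8, 24.3, 57.1, 17.9 and 24.8 CPM. Of these, 4 lie below all 7 controls and the other two lie above them all, and the means were 36.7 ± 23.0 CPM (SD, n = 6) and 47.3 ± 4.94 CPM (SD, n = 7). On HF/HS the levels were 24.8 to 63.6 CPM (median 39.9) in controls and 18.8 to 80.2 CPM (median 56.9) in HGFAC-KO mice. By genotype the log2 fold change was -0.36 (95% interval -1.02 to 0.29, adjusted p = 0.842) on chow and 0.34 (95% interval -0.35 to 1.03, adjusted p = 0.770) on HF/HS, and their difference was 0.71 (95% interval -0.24 to 1.65, adjusted p = 0.984). By diet it was -0.15 in controls and 0.56 in HGFAC-KO mice (adjusted p = 0.694 and 0.447). Without HGFAC-KO replicate 2 on chow, the highest at 73.8 CPM, the genotype gave -0.69 on chow and the diet 0.88 in HGFAC-KO mice. The difference in spread was seen in the values and was not tested.

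*Nr1h4* (chromosome 10, 89454234 to 89533585, minus strand) ranged from 109 to 194 CPM over all mice, with group medians between 133 and 167 CPM. Its lowest mouse was HGFAC-KO on chow replicate 1. On chow 3 of 6 HGFAC-KO mice exceeded every control, and the log2 fold change was 0.21 (95% interval -0.034 to 0.46, adjusted p = 0.810). The other 3 comparisons gave log2 fold changes between -0.035 and 0.11, with adjusted p between 0.389 and 0.896.

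The uptake transporter *Slc10a1* (chromosome 12, 80953183 to 80968705, minus strand) was the 1 member that passed the threshold. Controls measured 352 to 431 CPM (median 394) on chow and 374 to 579.5 CPM (median 461) on HF/HS. On HF/HS 5 of 7 controls exceeded every control on chow, while replicates 1 and 7 lay inside the chow range. The means were 395 ± 28.6 CPM (SD, n = 7) and 481 ± 73.9 CPM (SD, n = 7), with a log2 fold change of 0.28 (95% interval 0.10 to 0.47, adjusted p = 0.0473) by edgeR, and an exact two-sided permutation test gave p = 0.0134. HGFAC-KO mice measured 315 to 467 CPM (median 404) on chow and 414 to 514 CPM (median 459.7) on HF/HS, with a log2 fold change of 0.18 (95% interval -0.0066 to 0.36, adjusted p = 0.242). The diet effect was not shown to differ between genotypes, since that difference was -0.11 (95% interval -0.37 to 0.15, adjusted p = 0.984). The genotype gave 0.031 on chow and -0.082 on HF/HS (adjusted p = 0.949 and 0.804).

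The call for *Slc10a1* sits at the threshold. Leaving out 1 mouse at a time kept the log2 fold change between 0.24 and 0.34, but the adjusted p was under 0.05 in 2 of 14 such fits (0.0132 without control on HF/HS replicate 1 and 0.029 without replicate 7), and it was 0.0169 with DESeq2, 0.066 with upper-quartile normalization and 0.0516 with no filter on low counts. The summed hepatocyte markers of controls ranged from 82186 to 97199 CPM on chow and from 81749 to 99601 CPM on HF/HS, with 2 of 9 markers called higher and 2 lower (background 4.93% and 5.6%). In bulk liver, fewer cells of a type and less RNA per cell cannot be told apart.

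The canalicular bile salt pump *Abcb11* (chromosome 2, 69238282 to 69342616, minus strand) measured on chow 372 to 480.2 CPM (median 433) in controls and 292 to 455 CPM (median 377) in HGFAC-KO mice. It measured on HF/HS 408 to 497 CPM (median 472) in controls and 406 to 565 CPM (median 482) in HGFAC-KO mice. In HGFAC-KO mice 4 of 7 on HF/HS exceeded every mouse on chow, and the other 3 lay within the chow range. The log2 fold change by diet was 0.34 (95% interval 0.11 to 0.57, adjusted p = 0.0810) in HGFAC-KO mice and 0.12 (95% interval -0.010 to 0.24, adjusted p = 0.237) in controls. The first misses the threshold in the test used here and passes it with DESeq2 (adjusted p = 0.0354) and with all mice in 1 edgeR fit (adjusted p = 0.02). On chow the genotype gave -0.19 (95% interval -0.37 to -0.00097, adjusted p = 0.801), with an unadjusted p of 0.049, and 3 of 6 HGFAC-KO mice lay below every control. Without HGFAC-KO replicate 1, the lowest mouse at 292 CPM, this was -0.13 and the diet effect in HGFAC-KO mice was 0.27 (edgeR adjusted p = 0.779 and 0.128). On HF/HS the genotype gave 0.031 (95% interval -0.15 to 0.21, adjusted p = 0.935), and the difference between the diets was 0.22 (95% interval -0.037 to 0.48, adjusted p = 0.984). *Abcb11* shares 136 exonic bases with the antisense gene Gm13613, and the strand setting of the counting is not given in the sources used here.

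**Figure D2:**
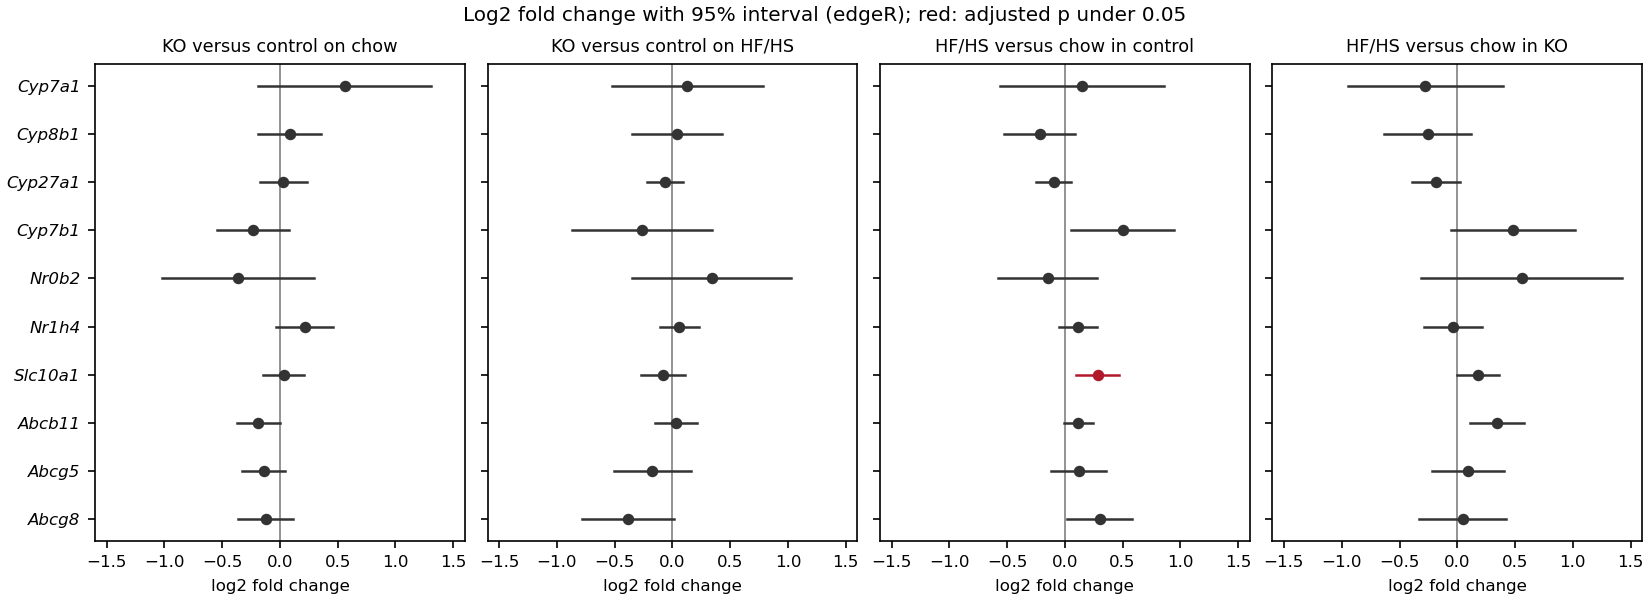
Log2 fold change of the 10 genes (x axis) with its 95% interval from edgeR, in the genotype comparison on each diet and the diet comparison in each genotype; red marks an adjusted p under 0.05. *Slc10a1* in controls by diet, at 0.28, is the only red point, and the intervals of *Cyp7a1* are among the 2 widest in each comparison.

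The sterol half-transporters overlap in the genome. *Abcg5* (chromosome 17, 84658234 to 84683011, minus strand) and *Abcg8* (chromosome 17, 84676302 to 84700333, plus strand) are annotated on opposite strands and share 82 exonic bases. *Abcg5* measured on chow 33.6 to 46.2 CPM (median 35.2) in controls and 27.9 to 40.3 CPM (median 32.5) in HGFAC-KO mice. It measured on HF/HS 30.6 to 53.0 CPM (median 40.8) in controls and 26.8 to 48.5 CPM (median 31.8) in HGFAC-KO mice. *Abcg8* measured on chow 34.2 to 49.7 CPM (median 37.1) in controls and 26.9 to 44.1 CPM (median 33.5) in HGFAC-KO mice. It measured on HF/HS 34.3 to 68.1 CPM (median 47.0) in controls and 23.8 to 52.1 CPM (median 30.6) in HGFAC-KO mice. Neither gene passed the threshold in any comparison. The largest log2 fold changes were those of *Abcg8*, -0.38 (95% interval -0.78 to 0.012, adjusted p = 0.527) for the genotype on HF/HS and 0.30 (95% interval 0.021 to 0.58, adjusted p = 0.166) for the diet in controls, and *Abcg5* gave -0.17 and 0.12 there (adjusted p = 0.754 and 0.548).

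The ratio of the counts of the 2 mRNAs shifted between groups although their levels did not pass. On chow the log2 ratio of *Abcg8* to *Abcg5* had a median of 0.022 in controls (lowest -0.055, highest 0.13) and of 0.068 in HGFAC-KO mice (lowest -0.049, highest 0.13). On HF/HS the median was 0.22 in controls (lowest 0.11, highest 0.36) and -0.038 in HGFAC-KO mice (lowest -0.19, highest 0.19). The controls on HF/HS are the high group and overlap each of the others. Their mean was 0.22 ± 0.097 (SD, n = 7), against 0.042 ± 0.068 (SD, n = 7) for controls fed chow. HGFAC-KO mice had means of 0.053 ± 0.078 (SD, n = 6) on chow and 0.0031 ± 0.13 (SD, n = 7) on HF/HS. By exact two-sided permutation tests, with adjustment over 8 tests, the difference was 0.18 for the diet in controls (p = 0.00175, adjusted p = 0.014) and -0.21 for the genotype on HF/HS (p = 0.00641, adjusted p = 0.0256). The same exact tests gave -0.05 for the diet in HGFAC-KO mice (p = 0.434, adjusted p = 0.69) and 0.011 for the genotype on chow (p = 0.774, adjusted p = 0.774). The genotype effect differed between the diets by -0.22, by an exact test of genotypes exchanged within each diet that was added after these values were seen (p = 0.0113, adjusted p = 0.0227 over 2 ratios). With 1 mouse left out and the same tests, the adjusted p of the diet difference in controls was between 0.0093 and 0.028. That of the genotype difference on HF/HS was under 0.05 in 13 of 14 cases and 0.0536 without control on HF/HS replicate 5, and that of the last difference was between 0.0101 and 0.0414. Which reads of the shared 82 bases went to which gene is not known here, and their part in the ratio was not tested. The share of counting error in the spread of the ratio was not measured.

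**Figure D3:**
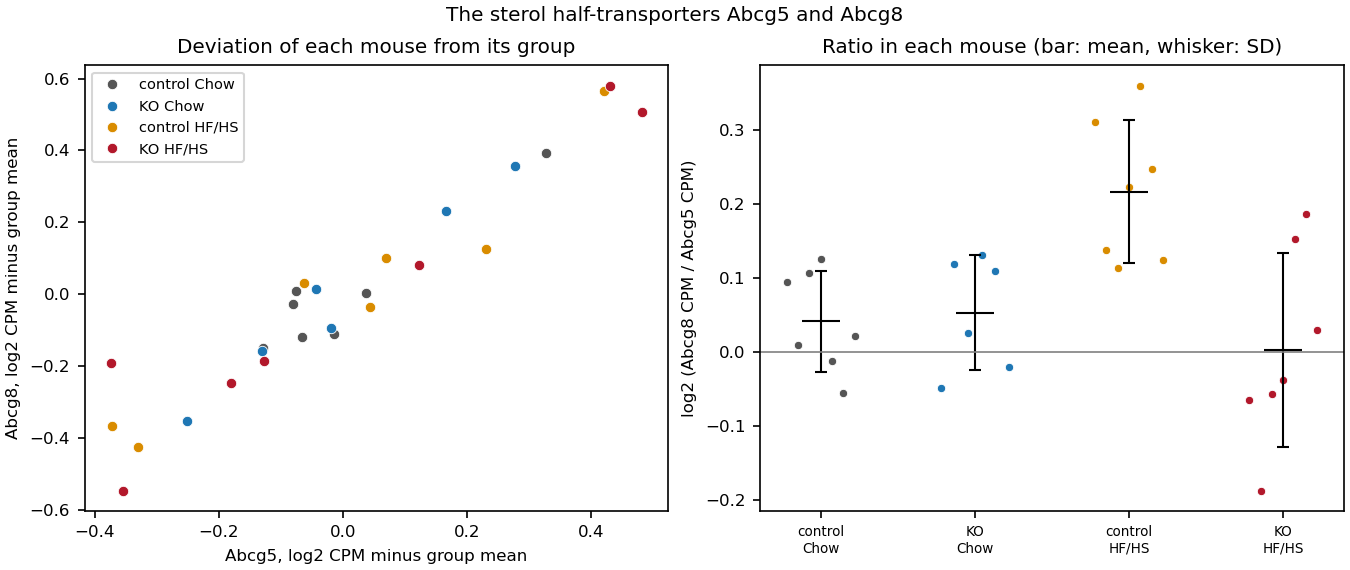
Left, deviation of each mouse from its group mean for *Abcg5* (x axis) and *Abcg8* (y axis), both in log2 CPM, coloured by group; the 27 points lie along a line (r = 0.958). Right, log2 ratio of *Abcg8* to *Abcg5* in each mouse (y axis) by group (x axis), with the mean as bar and the SD as whisker; the 7 controls on HF/HS lie between 0.11 and 0.36, above most mice of the other groups.

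Within groups, mice of the same genotype and diet varied together in several of these genes. The mean of its group was subtracted from each log2 CPM, and Pearson's r and Spearman's rho were computed over the 27 mice with 100000 permutations within groups and adjustment over 45 pairs. All points come from the same libraries with the same scaling. Both measures passed for 6 pairs. *Abcg5* and *Abcg8* gave r = 0.958 and rho = 0.941 (permutation p = 1e-05 for each, the smallest possible here, adjusted p = 0.00045 for each), with r between 0.934 and 0.985 inside the 4 groups and 0.944 without the 2 mice farthest from the median, and the genes share bases as given above. *Cyp8b1* and *Nr1h4* gave r = 0.67 and rho = 0.7 (permutation p = 7e-05 and 0.00021, adjusted p = 0.00157 and 0.00472), positive in every group and 0.701 without the 2 farthest mice. *Cyp7a1* and *Cyp8b1* gave r = 0.561 and rho = 0.534 (permutation p = 0.00282 and 0.00707, adjusted p = 0.0398 and 0.0454), from 0.31 to 0.788 inside groups and 0.505 without the 2 farthest mice.

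The other 3 pairs linked different functions. *Cyp27a1* and *Slc10a1* gave r = 0.588 and rho = 0.611 (permutation p = 0.00425 and 0.00297, adjusted p = 0.0398 and 0.0267) and 0.701 without the 2 farthest mice, but -0.28 in controls on chow. *Nr0b2* and *Abcg5* gave r = 0.577 and rho = 0.617 (permutation p = 0.00586 and 0.00278, adjusted p = 0.0439 and 0.0267) and 0.517 without the 2 farthest mice, with -0.04 in controls on chow and 0.824 in HGFAC-KO mice on chow. *Cyp7a1* and *Abcg5* ran in opposite directions, with r = -0.523 and rho = -0.524 (permutation p = 0.00442 and 0.00704, adjusted p = 0.0398 and 0.0454) and -0.41 without the 2 farthest mice. For that pair the r inside groups was -0.98 in controls on chow, -0.89 without replicate 3 of that group, and between -0.51 and -0.46 in the other 3 groups. *Cyp7a1* and its repressor *Nr0b2* gave r = -0.47 and rho = -0.51 (permutation p = 0.0156 and 0.0105), which missed the threshold after adjustment (0.059 and 0.0592), and r was 0.19 in controls on chow, where *Nr0b2* hardly varied, against -0.61 to -0.56 in the other 3 groups.

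By the same centred r, the 3 genes outside the set most alike to each of 4 members were taken from 13922 genes. For *Cyp7a1* these were *Jrk* (r = 0.818), *Zfp280c* (0.772) and *Prmt6* (0.752), each positive in every group. *Cyp8b1* varied most like *Mettl27* (0.873), *Hdac6* (0.839) and *Nectin1* (0.829), again positive in every group. For *Nr0b2* they were *Depp1* (0.765), *Kcnk5* (0.764) and *BC024139* (0.721), of which only *Depp1* was positive in all 4 groups. *Abcg5* varied most like *Il15ra* (0.879), *Fam210a* (0.844) and *Zranb1* (0.841). These are descriptions of likeness over 27 mice, picked as the highest of many values, and carry no test.

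Among other genes of bile acid and canalicular transport, most of those tested passed by diet in controls. Of 13 tested in controls, 4 rose and 5 fell on HF/HS (background 4.93% higher and 5.6% lower), with a median log2 fold change of 0.072 against 0.0036 over all genes. Of 14 tested in HGFAC-KO mice, 2 rose and 4 fell (background 3.17% and 2.73%, medians 0.087 and 0.0037). *Slco1a4*, a sinusoidal uptake transporter of organic anions, went from 83.2 ± 15.1 CPM (SD, n = 7) on chow to 18.4 ± 5.17 CPM (SD, n = 7) on HF/HS in controls, a log2 fold change of -2.18 (adjusted p = 1.53e-06), and gave -2.37 (adjusted p = 0.000331) in HGFAC-KO mice. *Abcc3* (MRP3), a basolateral exporter of conjugates, fell from 489 ± 68.5 CPM (SD, n = 7) to 214 ± 45.3 CPM (SD, n = 7) in controls, or by 1.2 on the log2 scale (adjusted p = 2.39e-05), and by 1.48 in HGFAC-KO mice (adjusted p = 9.87e-05). The epoxide hydrolase *Ephx1* fell by 0.95 and 0.80 (adjusted p = 2.68e-05 and 0.000450), and the basolateral exporter *Abcc4* (MRP4) by 1.28 and 1.25 (adjusted p = 0.000223 and 0.00247). Among those that rose in controls were *Slc22a7*, an organic anion transporter, at 1.68 (adjusted p = 0.00198), and *Slco1b2*, a sinusoidal uptake transporter that also takes up bile acids, at 0.48 (adjusted p = 0.00105). *Slco1a1* rose in both genotypes (0.53 and 0.38, adjusted p = 0.00724 and 0.0356), as did *Abcg2* (0.27 and 0.31, adjusted p = 0.00739 and 0.0455). *Abcb1a* fell in controls, at -0.50 (adjusted p = 0.0360). *Abcc4* and *Abcb1a* were named after their values were seen. *Slc51a* was too low to test in both genotypes, and *Slc51b* in controls.

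**Figure D4:**
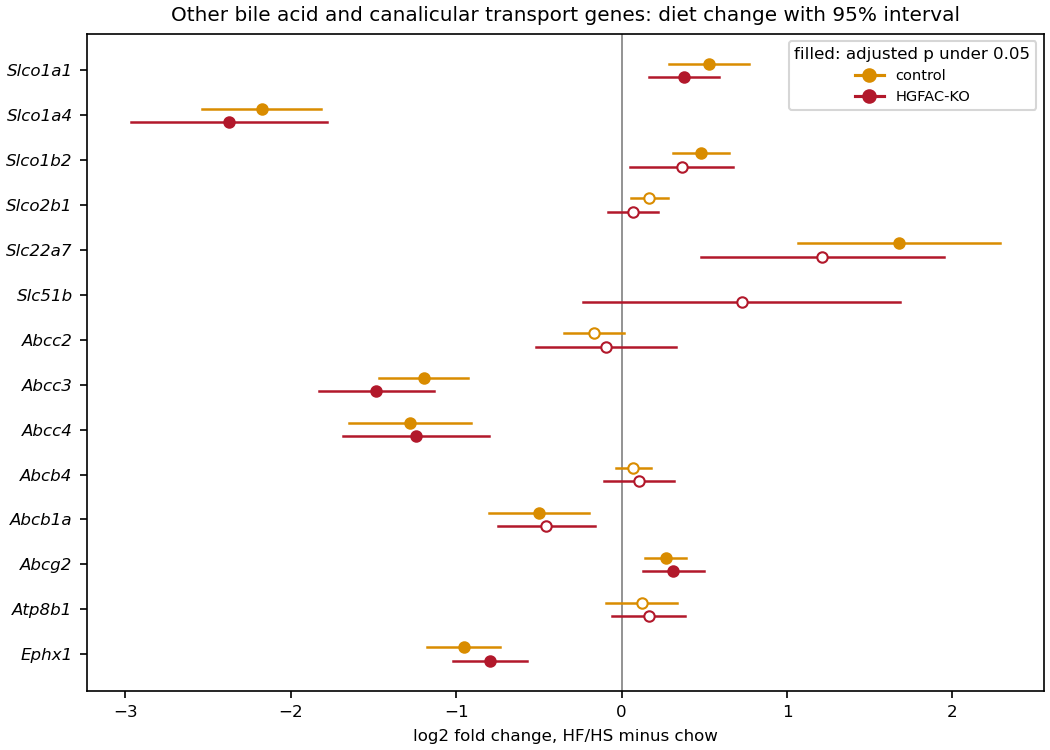
Log2 fold change by diet (x axis, HF/HS minus chow) with its 95% interval for the other transport genes, in controls and HGFAC-KO mice; filled points have an adjusted p under 0.05. *Slco1a4* lies farthest left in both genotypes (-2.18 and -2.37) and *Slc22a7* farthest right in controls (1.68).

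The genotype changed 0 of the tested transport genes on either diet by edgeR (unadjusted p under 0.05 for 2 of 13 on chow, background 5.98%, and 2 of 14 on HF/HS, background 9.64%). On chow the smallest p values were those of *Slco1a4* (0.36, adjusted p = 0.801), *Abcg2* (-0.15, adjusted p = 0.801) and *Slco1b2* (-0.25, adjusted p = 0.810). On HF/HS they were those of *Slco1b2* (-0.38, adjusted p = 0.331), *Slco1a1* (-0.20, adjusted p = 0.492) and *Abcc3* (-0.35, adjusted p = 0.529); DESeq2 called 1 of 14 there (background 0.406%). The interaction was called for 0, the smallest p values being those of *Abcc3* (-0.29), *Slco2b1* (-0.10) and *Slc22a7* (-0.47), each with an adjusted p of 0.984.

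Among 17 tested genes of later bile acid synthesis, 5 rose and 2 fell on HF/HS in controls (background 4.93% and 5.6%, median log2 fold change 0.095 against 0.0036). *Slc27a2*, the very long-chain acyl-CoA synthetase that also activates bile acid intermediates, rose by 0.33 (adjusted p = 0.000457), the reductase *Akr1c6* by 0.49 (adjusted p = 0.00692), and the peroxisomal genes *Amacr*, *Abcd3* and *Scp2* by 0.30, 0.25 and 0.22 (adjusted p = 0.00758, 0.0141 and 0.0107). *Cyp39a1*, the 24-hydroxycholesterol 7α-hydroxylase, fell from 32.6 ± 4.43 CPM (SD, n = 7) to 16.0 ± 5.11 CPM (SD, n = 7) (-1.02, adjusted p = 0.00221), and *Baat*, which conjugates bile acids to taurine, gave -0.15 (adjusted p = 0.0431). In HGFAC-KO mice 0 of 17 passed with edgeR, 5 had an unadjusted p under 0.05 (background 5.89% and 22.4%), and DESeq2 called 2 (background 10.3%). Their smallest p values were those of *Abcd3* (0.23, adjusted p = 0.0898), *Amacr* (0.21, adjusted p = 0.0924) and *Scp2* (0.20, adjusted p = 0.111). The diet effect was not shown to differ between genotypes, since the interaction was called for 0 of 17 by edgeR (unadjusted 0, background 3.63%). The genotype changed 0 of 17 on chow (unadjusted 0) and 0 on HF/HS (unadjusted 6 of 17, background 9.64%), where *Acot8* gave -0.23 (adjusted p = 0.396), *Hsd17b4* -0.15 (adjusted p = 0.448) and *Cyp39a1* 0.61 (adjusted p = 0.457). On chow *Abcd3* gave -0.12, *Hsd17b4* -0.11 and *Scp2* -0.10 (adjusted p between 0.810 and 0.820).

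Regulators and targets outside the set were read beside the share of all genes called by diet, 10.5% in controls and 5.89% in HGFAC-KO mice. Of 16 tested regulators of bile acid genes, *Ppara* (0.42, adjusted p = 0.0162) and *Nr1h3*, which encodes LXRα (0.17, adjusted p = 0.0460), rose on HF/HS in controls, ahead of the FXR partner *Rxra* (0.21, adjusted p = 0.146). In HGFAC-KO mice the hepatocyte factor *Foxa2* fell (-0.29, adjusted p = 0.0329), followed by *Ppara* (0.46, adjusted p = 0.0527) and the FGF15 receptor *Fgfr4* (-0.27, adjusted p = 0.0701). Of the FXR targets outside the set, *Sdc1* and *Baat* fell in controls (2 of 8; -0.29 and -0.15, adjusted p = 0.0213 and 0.0431). In HGFAC-KO mice *Osgin1* rose and *Sdc1* fell (2 of 9; 1.05 and -0.36, adjusted p = 0.00183 and 0.0388). *Osgin1* went from 176 ± 53.6 CPM (SD, n = 6) to 365 ± 56.2 CPM (SD, n = 7), and it is also known as an oxidative stress gene. Of 10 LXR targets, the ubiquitin ligase *Mylip* (0.47, adjusted p = 0.0238) and *Nr1h3* rose in controls, and the sterol exporter *Abcg1* (0.49, adjusted p = 0.0356) rose in HGFAC-KO mice. The genotype and the interaction gave 0 calls in these 3 lists by edgeR and by DESeq2. At an unadjusted p under 0.05 there were, for the regulators, the FXR targets and the LXR targets, 1 of 16, 0 of 8 and 1 of 10 by genotype on chow (background 5.98%), and 0 of 16, 1 of 9 and 1 of 10 on HF/HS (background 9.64%). For the interaction there were 3 of 16, 0 of 9 and 1 of 10 (background 3.63%), the 3 regulators being *Fgfr4* (-0.29), *Foxa2* (-0.56) and *Nr1h3* (-0.15), each with an adjusted p of 0.984. By genotype *Foxa2* gave 0.22 on chow, *Fgfr4* -0.17, *Osgin1* 0.38 and *Mylip* -0.31 on HF/HS, and the lipogenic *Scd1* -0.50 on chow (adjusted p between 0.448 and 0.801).

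Values of the clock and of other cells stand beside these results, because *Cyp7a1* is a rhythmic gene in liver and because liver holds several cell types. Of 16 core clock genes, *Nr1d1* (0.77, adjusted p = 0.0272) and *Dbp* (1.47, adjusted p = 0.0284) rose on HF/HS in controls, where *Slc10a1* passed and 4.93% of all genes were called higher. At an unadjusted p under 0.05 it was 7 of 16 there (background 25.4%), and DESeq2 called 5 (background 14.3%). Within controls on chow *Dbp* ran from 4.88 to 36.6 CPM. In HGFAC-KO mice 0 of 16 passed by diet (unadjusted 1 of 16, background 22.4%, and DESeq2 0), and the genotype changed 0 on each diet by edgeR, with an unadjusted p under 0.05 for 7 of 16 on HF/HS (background 9.64%), *Arntl* (0.53, adjusted p = 0.331) and *Npas2* (0.84, adjusted p = 0.448) first, and 1 called by DESeq2 (background 0.406%). By diet in HGFAC-KO mice *Nr1d1* gave 0.67 and *Dbp* 0.88 (edgeR adjusted p = 0.320 and 0.494). The interaction was called for 0 of 16 clock genes by edgeR (unadjusted 0, background 3.63%). Of 10 Kupffer cell and macrophage markers, 6 rose on HF/HS in HGFAC-KO mice (background 3.17%), where their sum went from 186 to 284 CPM on chow to 258 to 406 CPM, and 0 in controls (193 to 399 CPM and 241 to 490.1 CPM). The median log2 fold change of these 10 by diet was 0.50 in HGFAC-KO mice and 0.24 in controls. A difference between genotypes was not shown, since the interaction was called for 0 of 10 by edgeR (unadjusted 0, background 3.63%). Hepatocyte markers of HGFAC-KO mice summed to between 93163 and 106976 CPM on chow, where 4 of 6 mice lay above every control, and between 92630.4 and 120512 CPM on HF/HS, where 6 of 7 did. The median sums were 99482 CPM against 86729 CPM on chow and 108915 CPM against 89366 CPM on HF/HS. By diet 1 hepatocyte marker rose and 3 fell in HGFAC-KO mice. Cholangiocyte markers summed to between 68.9 and 130.3 CPM over all mice, stellate cell markers to between 154 and 368 CPM, sinusoidal endothelial markers to between 194 and 444 CPM, and T and B cell markers to between 2.26 and 6.6 CPM. Of the zonation lists, 1 pericentral gene rose and 2 fell in controls by diet, and 0 of 10 periportal genes rose and 5 fell (background 5.6% lower). In HGFAC-KO mice 2 of each list fell (background 2.73% lower). By diet, 1 stellate marker rose and 1 fell in controls and 1 rose in HGFAC-KO mice, 1 sinusoidal endothelial marker rose in HGFAC-KO mice, and 1 of 8 and 2 of 8 tested T and B cell markers rose in controls and HGFAC-KO mice. Of all genes, 4.93% rose and 5.6% fell in controls, and 3.17% rose and 2.73% fell in HGFAC-KO mice. The genotype changed 0 markers of any of these lists on either diet by edgeR, with an unadjusted p under 0.05 for up to 5 in a list (each zonation list on HF/HS, background 9.64%). The median log2 fold change by genotype on HF/HS was -0.29 over the pericentral list and 0.22 over the periportal list. On chow these medians were -0.15 and 0.13. The periportal *Pck1* went the other way on HF/HS, at -0.97. The interaction was called for 0 markers of any list by edgeR. No listed marker present in the table was at 0 throughout a group. The part of the clock, of other cells and of zonation in the results on the 10 genes was not tested.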

How the data were processed

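Liver mRNA libraries of 27 mice were stranded and read from both ends. Alignment to GRCm38 was by HISAT2 and gene counting by featureCounts 1.6.3, and the authors deposited raw counts per gene in 1 table without normalization. Whether the counting used strand is not given in the sources used here. Of 27179 rows, 3886 name no gene (4.13% to 12.1% of a library's counts) and were left out, and rows with the same symbol were summed.

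Groups came from the labels. Each comparison used its own groups, and the interaction used all mice. The test was edgeR 4.0.16 in R 4.3.3 on raw counts (TMM, filterByExpr with minimum count 10 and total 15, robust quasi-likelihood fit) and adjusted by Benjamini-Hochberg over all genes tested, with a threshold of 0.05. All 10 genes passed the filter in each comparison. Log2 CPM used a prior count of 2, and permutation tests between 2 groups were exact and two-sided. Levels per kilobase used exon unions, and coordinates came from GENCODE M21. The fits were tested on simulated counts. Alternatives were DESeq2 1.42.0, upper-quartile normalization, other filters, a replicate block, all mice in 1 fit and leaving out each mouse.

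The 10 genes and the gene lists were chosen with earlier results of these data known. The text names the 10 genes, the 3 genes of each list with the smallest p in a comparison, the 3 genes most alike to 4 members, and *Hgfac*. Genes outside this rule are marked, or are list genes past the threshold.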

Additional observations from a re-analysis of the deposited data

Results flagged for a closer look

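In 5 of 48 groups of 6 or 7 mice (the 10 genes and the 2 ratios in 4 groups), 1 mouse lay farther from the others than Dixon's 95% limit, which chance alone passes in about 1 in 20 groups. *Cyp7a1* was highest in control on HF/HS replicate 4, at 315 CPM, with the next mouse at 163 CPM. *Cyp27a1* was lowest in control on chow replicate 4, at 348 CPM. *Abcb11* was lowest in control on HF/HS replicate 1, at 408 CPM. Both sterol half-transporters were highest in control on chow replicate 3, *Abcg5* at 46.2 CPM and *Abcg8* at 49.7 CPM, and *Cyp7a1* had its lowest level of that group, 45.6 CPM, in the same mouse.

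The effect of the genotype on the log2 ratio of *Abcg8* to *Abcg5* differed between the diets by -0.22, from 0.011 on chow to -0.21 on HF/HS (two-sided permutation of genotypes within each diet, p = 0.0113). This p-value is exact only for no genotype effect on either diet. Neither gene passed the interaction test on its own, with differences of -0.031 for *Abcg5* and -0.26 for *Abcg8* (edgeR adjusted p = 0.992 and 0.984).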

How the results depend on the processing

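Of the 10 genes, none changed its side of the threshold under any alternative except *Slc10a1* by diet in controls and *Abcb11* by diet in HGFAC-KO mice. The count of 1 of the 10 called by diet in controls became 0 with upper-quartile normalization, with no low-count filter and with the replicate block (adjusted p of *Slc10a1* 0.066, 0.0516 and 0.109), and 0 to 1 without 1 mouse. In HGFAC-KO mice the count of 0 became 1, *Abcb11*, with DESeq2 and with all mice in 1 fit. The count over all genes became 13 with DESeq2 for the genotype on chow, and for the genotype on HF/HS 55 with DESeq2, 1 with all mice in 1 fit, and 2 to 11 without 1 mouse (11 without HGFAC-KO replicate 5 and 5 without control replicate 7). By diet it became 774 in controls with the replicate block, 1401 in HGFAC-KO mice with DESeq2, and 467 to 950.0 in HGFAC-KO mice without 1 mouse (467 without HGFAC-KO replicate 2 on chow). The cause of these shifts was not tested.

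Signs turned for differences that had not passed the threshold. With the replicate block *Slc10a1* by genotype on chow gave -0.0046, and *Abcg5* and *Abcg8* by diet in HGFAC-KO mice gave -0.015 and -0.069. Without 1 mouse, the ranges that crossed 0 were for the genotype on chow -0.024 to 0.089 (*Cyp27a1*) and -0.014 to 0.090 (*Slc10a1*), for the genotype on HF/HS -0.016 to 0.44 (*Cyp7a1*), -0.068 to 0.14 (*Cyp8b1*) and -0.014 to 0.064 (*Abcb11*), for the diet in controls -0.16 to 0.27 (*Cyp7a1*), for the diet in HGFAC-KO mice -0.13 to 0.027 (*Nr1h4*) and -0.069 to 0.12 (*Abcg8*), and for the interaction -0.15 to 0.055 (*Cyp8b1*), -0.22 to 0.13 (*Cyp7b1*) and -0.12 to 0.038 (*Abcg5*). Without control replicate 5 the ratio of *Abcg8* to *Abcg5* by genotype on HF/HS missed the threshold after adjustment (exact permutation, adjusted p = 0.0536). That ratio by genotype on chow ran from -0.0049 to 0.032, and the ratio of *Cyp8b1* to *Cyp7a1* from -0.24 to 0.096 by diet in HGFAC-KO mice and from -0.63 to -0.26 by genotype on chow, where the exact permutation p was 0.0455 without HGFAC-KO replicate 4 (adjusted p = 0.121 over 8 tests). A prior count of 0.5 changed no call of a ratio. Counts of list genes called, added after the data were seen, moved by over 1.5 times in 25 of 174 alternatives and, without 1 mouse, in 63 of 486.

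Mice share only a replicate number. The deviations of same-numbered mice correlated from -0.25 to 0.37, and more than 0.1 in 1 of 6 pairs for the genotype on chow, 3 of 7 on HF/HS, 0 of 7 for the diet in controls and 4 of 6 in HGFAC-KO mice, so that the replicate block does not show a paired design.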
